A study of Mus musculus with 6 samples.

Results

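Long intergenic noncoding RNAs (lincRNAs) are long transcripts annotated as lying between protein-coding genes and as lacking a long reading frame. The genes described here are the 49 abundant autosomal lincRNA genes of mouse femur. They were selected on measured values: the deposited gene table calls each of them a lincRNA, places it on an autosome, and its values in the 3 libraries of ovariectomized mice average 5 FPKM or more. FPKM is fragments per kilobase of transcript, scaled for the depth of the library, so it can be compared between genes of different length. The imprinted genes H19, Meg3, Rian and Mirg were left out by name. The 49 genes stand against 4915 autosomal lincRNA genes and 54532 genes of all kinds in the table, and 2640 of the 4915 were listed at 0 in all 6 libraries.

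The study took femurs of wild-type mice in 2 groups: OVX, ovariectomized mice given saline, a model of bone loss after menopause, and Zin, mice that received zingerone, a ginger phenol. The oral zingerone dose was 100 mg/kg per day, and dosing lasted 8 weeks. Each group had 3 libraries made from bone powder, so every cell type of bone, marrow and adhering tissue contributed RNA. The sample names also carry 8, 9 and 10 weeks within each group, and the sample records name the RAW264.7 macrophage line and osteoclast precursors beside the femoral tissue. The labels resolve neither point, and no sample label states that the Zin mice were ovariectomized.

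The column names of the table settle only 1 of the 2 groups. Columns A1 to A3 are named in the labels as OVX. The other 3 columns, B1 to B3, match no label and were taken as Zin by elimination, so every difference between Zin and OVX below rests on that reading. The labels do not say which Zin mouse each B column is, and do not name separate animals. The p-values therefore measure the spread between these libraries. In bulk tissue, fewer cells of a type and less RNA per cell cannot be told apart.

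LincRNAs are made by RNA polymerase II and are capped, and most are spliced. Some work as RNA in the nucleus, as Malat1 does in nuclear speckles and Neat1 does as the scaffold of paraspeckles. Others bind proteins or microRNAs in the cytoplasm, and others are hosts, whose introns or exons are cut into small nucleolar RNAs (snoRNAs, guides for RNA modification) or microRNAs (short guides that repress messenger RNAs). In marrow the best-known hosts are Mir142hg, whose microRNA is made throughout the blood lineages, and Mir17hg, which carries the miR-17-92 cluster known for its part in B cell development.

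The microRNA sequences of the host genes are shown first. The annotations of these microRNAs on the host strand were listed at 0 in every library, and the reason was not tested. The mature microRNAs below are from RefSeq on GRCm38.p6, written 5′ to 3′ with the seed, bases 2 to 8, in capitals. Mir142hg (chromosome 11, 87755577 to 87757270, plus strand) holds the miR-142 hairpin in its intron.
mmu-miR-142a-5p: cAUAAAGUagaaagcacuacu
mmu-miR-142a-3p: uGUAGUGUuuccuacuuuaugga

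Mir17hg (chromosome 14, 115042879 to 115046727, plus strand) carries 6 hairpins in its exons. Within it miR-17-5p and miR-20a-5p share a seed, and so do miR-19a-3p and miR-19b-3p, while miR-18a-5p and miR-92a-3p each have their own.
mmu-miR-17-5p: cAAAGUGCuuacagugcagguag
mmu-miR-20a-5p: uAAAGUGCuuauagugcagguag
mmu-miR-18a-5p: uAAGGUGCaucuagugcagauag
mmu-miR-19a-3p: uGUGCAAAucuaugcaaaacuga
mmu-miR-19b-3p: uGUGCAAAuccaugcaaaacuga
mmu-miR-92a-3p: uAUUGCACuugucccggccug

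Among the members that act through short sequence elements, 1700020I14Rik is Oip5os1 in RefSeq, known as Cyrano, which is known to trigger the decay of miR-7. Its transcript of 8300 bases in GENCODE M21 (chromosome 2) held 2 matches to the miR-7 seed. One of these lies in a site at bases 2930 to 2959 in which 20 bases pair with miR-7a-5p, shown with the paired bases in capitals, above the microRNA with its seed in capitals. A seed match of this kind was present in 12.6% of all autosomal lincRNA genes searched, so the long pairing beside it, a run of 13 bases, is what the printed site adds.
1700020I14Rik site: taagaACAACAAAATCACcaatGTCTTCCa
mmu-miR-7a-5p: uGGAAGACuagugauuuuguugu

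2900097C17Rik is Norad in RefSeq, a cytoplasmic RNA known to bind the Pumilio proteins, which repress messenger RNAs. The motif TGTANATA, searched on the transcript strand only, occurred 11 times in its 4915 bases, between bases 651 and 3526. No other of the 4911 lincRNA genes searched had as many. The next, Gm7292, held 9 in 2527 bases and is a partial copy of 2900097C17Rik. The motif occurred at least once in 11.4% of these genes and in 14 of the 49, and its density was 2.24 per kb in 2900097C17Rik against 0.104 per kb over all of them. The stretch at bases 1512 to 1631 is shown as an example, with its 2 matches in capitals.
2900097C17Rik, 1512 to 1631: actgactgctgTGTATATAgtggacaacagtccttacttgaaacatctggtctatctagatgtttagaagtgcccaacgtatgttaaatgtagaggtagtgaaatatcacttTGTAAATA

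The snoRNA hosts Snhg6 and Snhg12 belong to a class whose transcripts often begin with a terminal oligopyrimidine tract, the start that puts ribosomal protein messenger RNAs under growth control. A C at the first base followed by at least 4 pyrimidines was found in 1 of 5 annotated Snhg6 transcripts, in 3 of 10 Snhg12 transcripts and in none of 7 Snhg20 transcripts, against 2.93% of autosomal lincRNA genes with 1 transcript of each searched. The first 40 bases of one transcript of each are shown with that tract in capitals.
Snhg6: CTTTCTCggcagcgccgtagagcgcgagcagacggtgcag
Snhg12: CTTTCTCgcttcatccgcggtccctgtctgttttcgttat
Snhg20: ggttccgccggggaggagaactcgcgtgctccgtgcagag

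The levels of the 49 genes spanned a wide range, and these levels are a description, because they chose the genes. In the OVX libraries 2 genes lay at or above 100 FPKM, 7 between 30 and 100, 14 between 10 and 30, and 26 between 5 and 10. The median of their OVX means was 9.54 FPKM, and that of their Zin means was 10.6 FPKM. The 3 lowest members were Gm19951 at 5.24 FPKM, 2010320M18Rik at 5.42 FPKM and Gm17586 at 5.43 FPKM. Just outside the threshold lay Gm40787 at 4.90 FPKM, 2310040G24Rik at 4.85 FPKM and Gm28901 at 4.80 FPKM. Of the genes left out by name, H19 had 8.56 FPKM and Meg3, Rian and Mirg had 0.229, 0.117 and 0.0299 FPKM.

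**Figure D1:**
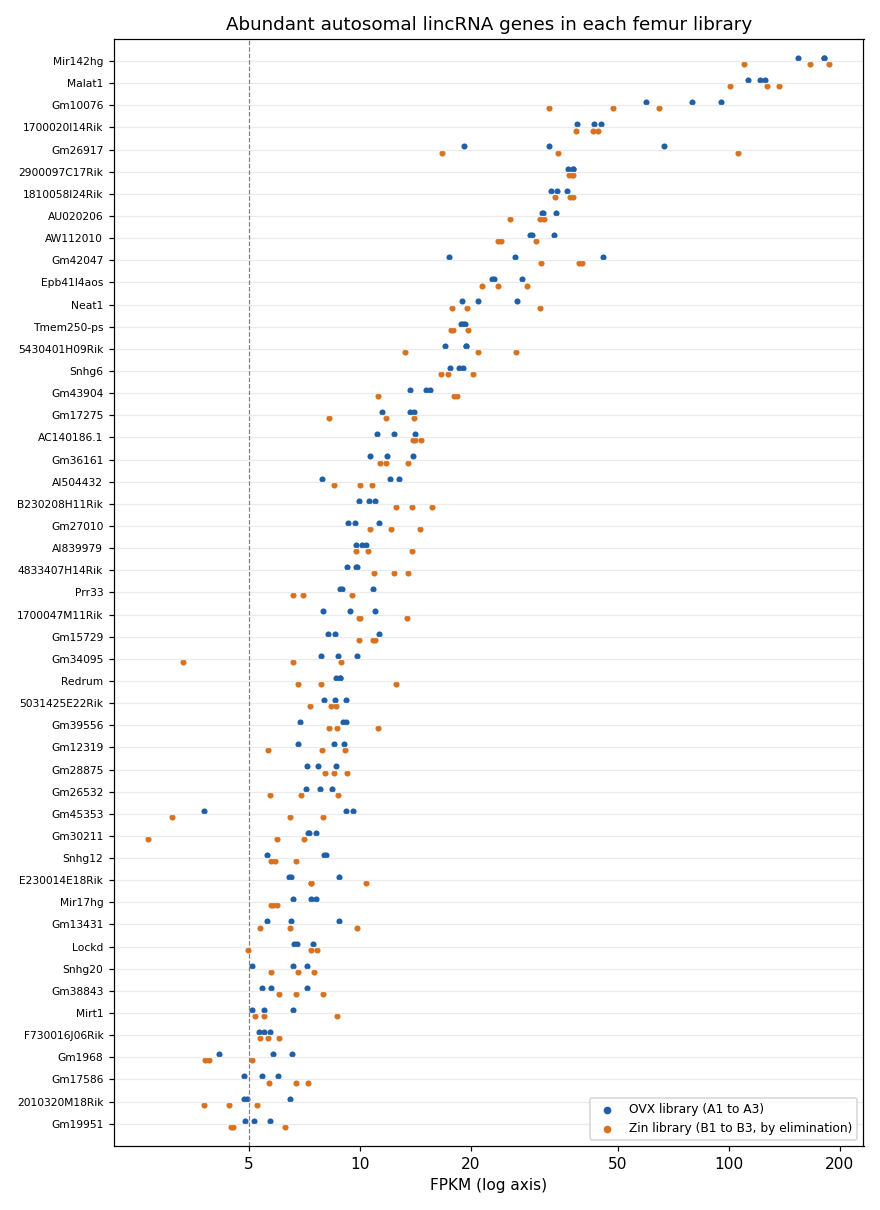
FPKM of the 49 lincRNA genes on a log axis, ordered by their OVX mean. Each point is 1 library, blue for OVX (A1 to A3) and orange for Zin (B1 to B3, by elimination), and the dashed line is the threshold of 5 FPKM. The order runs from Mir142hg (OVX mean 172 FPKM) to Gm19951 (5.24 FPKM), and the points of most genes interleave between the groups.

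As a share of all reads listed, the 49 genes took 0.343%, 0.289% and 0.318% in A1, A2 and A3, and 0.337%, 0.297% and 0.346% in B1, B2 and B3. The groups overlapped. They held between 49.96% and 53.2% of the reads of all lincRNA genes, those of the sex chromosomes included. The nuclear RNAs Malat1 and Neat1, both long and unspliced, made up 37.4% to 46.2% of the members' reads.

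Mir142hg was the highest of the 49 on the FPKM scale. Its levels were 181, 181 and 154 FPKM in A1, A2 and A3, and 110, 187 and 166 FPKM in B1, B2 and B3. B1 stood below the other 5 libraries, and B2 was above every OVX library, so the groups overlapped. The difference was -0.19 ± 0.20 (limma log2 difference ± SE, Zin minus OVX, n = 3 per group; adjusted p = 0.929). The microRNA itself was listed at 0 in all 6 libraries. An annotation on the opposite strand of the same locus, Mir142b, had 13.1 to 24.7 FPKM, and reads from the strands cannot be told apart where the counting ignored strand (its strand setting is not given).

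Mir17hg stood lower in the Zin libraries. It had 7.59, 7.35 and 6.59 FPKM in A1 to A3 and 5.82, 5.97 and 5.74 FPKM in B1 to B3. Every Zin library was below every OVX library. The B cell receptor gene Cd79a was also lower in every Zin library, at 77.0 to 152 FPKM against 163 to 180 FPKM in OVX. Some other genes of the same B cell marker list overlapped between the groups. The part of B cell content in the Mir17hg values was not tested. The difference of -0.26 ± 0.07 on the log2(FPKM + 1) scale (limma, n = 3 per group) had an unadjusted p of 0.00982 and an adjusted p of 0.660, so it did not pass the test. The 6 microRNAs of the cluster were listed at 0 in all libraries.

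The 2 nuclear RNAs had nearly equal group means. Malat1 had 122, 113 and 125 FPKM in OVX and 137, 101 and 127 FPKM in Zin, and the groups overlapped (log2 difference 0.01 ± 0.12, n = 3 per group). Neat1, whose long isoform builds paraspeckles, had 26.6, 18.9 and 20.9 FPKM in OVX and 17.7, 19.6 and 30.7 FPKM in Zin. A1 and B3 were high and the other 4 libraries lay close together. The Neat1 difference was 0.01 ± 0.22 (adjusted p = 0.998 with limma, n = 3 per group). The proteins that work with these RNAs did not pass the test either: 0 of 11 paraspeckle proteins and 0 of 8 nuclear speckle proteins were called, with median log2 differences of -0.03 and -0.01.

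The 2 cytoplasmic RNAs with printed elements varied little between libraries. 2900097C17Rik (Norad) had 36.5, 37.8 and 37.7 FPKM in OVX and 37.5, 37.8 and 36.9 FPKM in Zin, so its highest library exceeded its lowest by a ratio of 1.03. 1700020I14Rik (Cyrano) had 45.0, 38.8 and 43.2 FPKM in OVX and 44.3, 42.8 and 38.4 FPKM in Zin, with a ratio of 1.17. The log2 differences were 0.00 ± 0.05 and -0.02 ± 0.08 (limma, n = 3 per group).

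Of the 22 listed genes of a list of snoRNA hosts, 4 were members: Epb41l4aos, Snhg6, Snhg12 and Snhg20. Epb41l4aos had 23.1, 22.8 and 27.4 FPKM in OVX and 21.4, 28.5 and 23.6 FPKM in Zin. Snhg6 had 17.5, 19.1 and 18.5 FPKM in OVX and 20.3, 17.4 and 16.6 FPKM in Zin. Both pairs of groups overlapped. Snhg12 had 5.61, 8.01 and 8.11 FPKM in OVX, with A1 apart from the other two, and 6.70, 5.75 and 5.90 FPKM in Zin. Snhg20 had 7.21, 6.58 and 5.11 FPKM in OVX and 5.73, 6.79 and 7.52 FPKM in Zin, again overlapping. Other hosts reached like levels but carry another biotype in the table, such as Gas5 (OVX mean 30.4 FPKM) and Snhg8 (32.1 FPKM). Of the 17 hosts tested 0 were called, with a median log2 difference of -0.07, and 0 reached an unadjusted p under 0.05.

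The snoRNAs inside these hosts gave almost no signal: those of Snhg12 and the small RNAs of Snhg20 were listed at 0 in all libraries, Snord87 of Snhg6 had at most 1.44 FPKM, and the snoRNA of Epb41l4aos at most 2.75 FPKM. Of the 8 core proteins of snoRNA particles 0 were called. Nop56 and Snu13 were lower in Zin at an unadjusted p of 0.0409 and 0.0364, both with an adjusted p of 0.704 (limma). Of the other lists, 0 of 5 tested microRNA hosts, 0 of 10 immune or stress noncoding RNAs and 0 of 8 nonsense-mediated decay factors, which degrade many snoRNA host transcripts, were called, with median log2 differences of -0.19, 0.10 and -0.07.

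Several named members have a known tie to blood cells. AW112010, which is induced in activated immune cells, had 33.7, 28.9 and 29.2 FPKM in OVX and 23.7, 24.2 and 30.1 FPKM in Zin (log2 difference -0.23 ± 0.11, adjusted p = 0.736 with limma, n = 3 per group). B1 and B2 were below every OVX library and B3 was not. Redrum, an RNA of red cell precursors, had 8.81, 8.83 and 8.63 FPKM in OVX and 12.5, 7.85 and 6.79 FPKM in Zin. Its OVX libraries were nearly equal, while B1 was above and B2 and B3 were below all of them. The erythroid enzyme gene Alas2 had the same highest and lowest library, B1 at 642 FPKM and B3 at 347 FPKM, and so did the summed level of 5 erythroid markers. Of all genes tested, 20.9% were highest in B1 and 28.6% were lowest in B3. In the other libraries Alas2 did not follow Redrum: it rose from 440 to 526 and 566 FPKM over A1 to A3. In B2 it had 528 FPKM, above A1 and A2. The part of red cell content in the Redrum values was not tested.

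AU020206 had 34.0, 31.3 and 31.1 FPKM in OVX and 25.6, 30.7 and 31.6 FPKM in Zin, with B1 the lowest. Lockd, transcribed downstream of the cell cycle inhibitor gene Cdkn1b, had 6.75, 6.63 and 7.44 FPKM in OVX and 7.65, 7.35 and 4.96 FPKM in Zin. B3 was the lowest library for Lockd and also for Cdkn1b, at 34.0 FPKM against 39.8 to 46.8 FPKM in the others. Mirt1 had 6.59, 5.48 and 5.11 FPKM in OVX and 5.19, 5.50 and 8.64 FPKM in Zin, with B3 the highest. AI839979 had 10.2, 9.76 and 10.4 FPKM in OVX and 10.5, 9.75 and 13.8 FPKM in Zin, also with B3 the highest.

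Among the 49, 3 annotations are not of type lncRNA in RefSeq, where 36 of the 49 were matched and 33 were lncRNA. 1810058I24Rik and Tmem250-ps are protein-coding there, and Gm10076 is a pseudogene. 1810058I24Rik had 34.1, 33.0 and 36.4 FPKM in OVX and 37.2, 37.7 and 33.8 FPKM in Zin. Tmem250-ps had 18.8, 19.3 and 19.05 FPKM in OVX and 17.8, 19.7 and 17.7 FPKM in Zin. For both the groups overlapped, and their log2 differences were 0.07 ± 0.07 and -0.05 ± 0.06 (limma, n = 3 per group).

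Gm10076 (chromosome 14, 105681828 to 105682211, plus strand) had the largest difference of the 49. It had 59.5, 95.2 and 79.4 FPKM in OVX and 48.4, 64.5 and 32.5 FPKM in Zin. B2 lay above A1, so the groups overlapped. The log2 difference was -0.70 ± 0.28 (limma, n = 3 per group), with an unadjusted p of 0.0429 and an adjusted p of 0.704. It was -0.45 without B3 and -0.93 without B2.

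Gm10076 is a near-identical copy of Rpl41, the gene of a small protein of the large ribosomal subunit. Over 383 of its 384 bases it differed from the Rpl41 transcript by 2 substitutions, C317T and G424A, counted from the first base of that transcript with the Rpl41 base first. Neither lies in the coding part, whose 75 bases are the same in both genes and are shown here because no read within them can be assigned to one locus.
Rpl41 and Gm10076: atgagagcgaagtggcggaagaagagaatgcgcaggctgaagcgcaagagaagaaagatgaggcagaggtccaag

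Rpl41 had 892, 952 and 969 FPKM in OVX and 977, 956 and 812 FPKM in Zin, with a log2 difference of -0.04 ± 0.10 (limma, n = 3 per group). The reads of Gm10076 came to 2.72% ± 0.55 of those of Rpl41 in OVX and 1.72% ± 0.46 in Zin (SD, n = 3). The sources used here do not say how reads matching both loci were counted, so the level of Gm10076 is uncertain.

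Gm26917 (chromosome 17, 39843013 to 39846341, plus strand) was the most variable of the 49. It had 32.5, 19.2 and 66.7 FPKM in OVX and 106, 34.5 and 16.6 FPKM in Zin, a ratio of 6.34 between B1 and B3. The groups overlapped, with the highest and the lowest library both in Zin, and the log2 difference was 0.18 ± 0.73 (limma, n = 3 per group). The annotated ribosomal RNA gene CT010467.1 lies just past its end on the opposite strand, from base 39846353 to 39848827, and had 462, 521 and 614 FPKM in OVX and 495, 478 and 410 FPKM in Zin. Gm26917 reads were 5.48% to 28.8% of those of CT010467.1 in the 6 libraries, so the pair did not keep 1 ratio. The part of ribosomal RNA left in the libraries in the Gm26917 values was not tested.

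**Figure D2:**
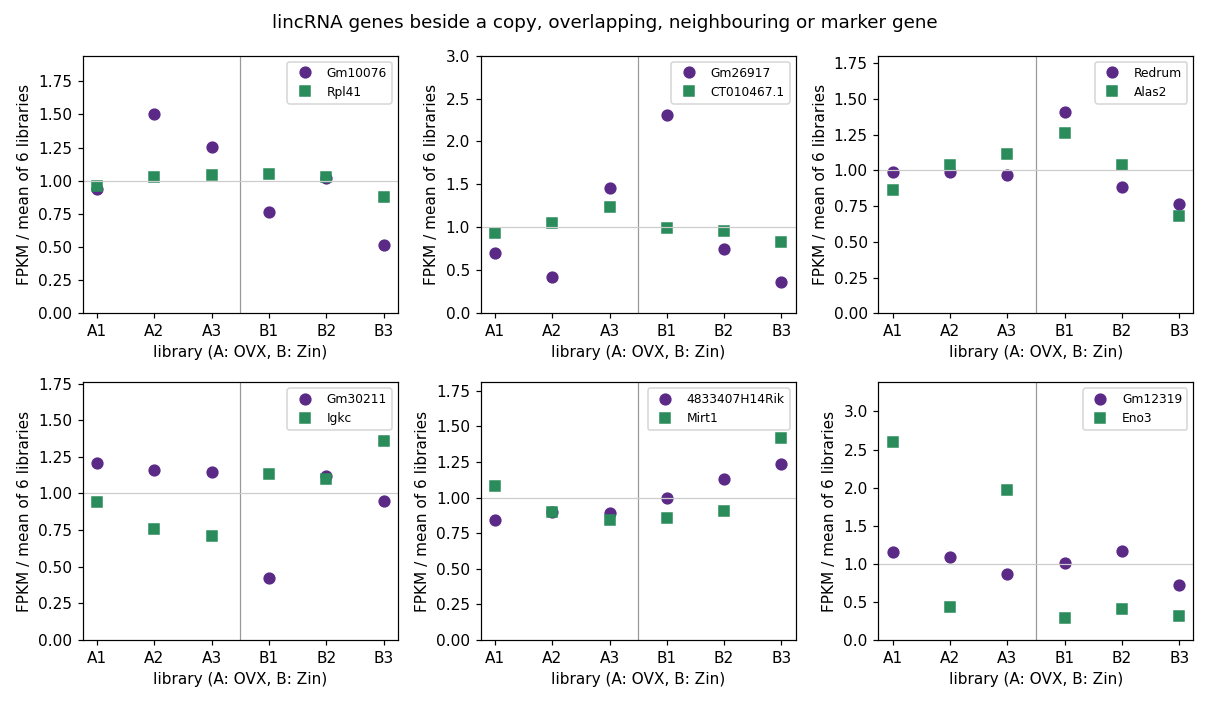
FPKM of 6 lincRNA genes (circles) and of a copy, overlapping, neighbouring or marker gene (squares), each divided by its own mean over the 6 libraries. The vertical line separates OVX (A) from Zin (B). Gm10076 varies while Rpl41 stays between 812 and 977 FPKM, Redrum and Alas2 are both highest in B1 and lowest in B3, and Eno3 is high in A1 and A3 alone while Gm12319 is not.

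The spread among OVX libraries was larger than counting noise for many members. The FPKM values were whole multiples of 1 read, so reads could be recovered, and a chi-square test asked whether a gene's share of reads differed among the 3 OVX libraries beyond counting error (an adjusted p under 0.05 over 14011 genes). It called 26 of the 49 members, against 38.7% of all genes tested. The members' share was 53.1%, and nothing is read from the difference, because the OVX values that chose the members enter this test. The test finds small differences in genes with many reads, such as 1700020I14Rik and Malat1, whose highest and lowest OVX libraries differed by ratios of 1.16 and 1.11.

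Of the 26, 7 also differed by a ratio of at least 1.5: Gm26917 (3.48), Gm42047 (2.61), Gm45353 (2.55), AI504432 (1.61), Gm10076 (1.60), Gm1968 (1.58) and Gm13431 (1.57), the last 2 named after their values were seen. The share of all genes that pass both thresholds was not computed, so nothing is read from this count. Gm42047 had 45.5, 26.4 and 17.4 FPKM in OVX and 39.2, 30.9 and 40.1 FPKM in Zin, with all Zin libraries inside the OVX range. AI504432 had 12.8, 7.91 and 12.1 FPKM in OVX and 8.49, 10.0 and 10.8 FPKM in Zin. Gm45353 had 9.19, 3.77 and 9.60 FPKM in OVX and 7.95, 6.46 and 3.10 FPKM in Zin. For both AI504432 and Gm45353 A2 was far below A1 and A3. The skeletal muscle markers were low in A2 as well: their summed level was 886 and 584 FPKM in A1 and A3, 63.5 FPKM in A2 and 32.6 to 98.6 FPKM in Zin. The chondrocyte markers were high in A2, at 24.4 and 50.9 FPKM in A1 and A3 and 470 FPKM in A2. The 4 megakaryocyte markers summed to 1457, 961 and 1507 FPKM in OVX and 1000.2, 1234 and 1228 FPKM in Zin, low in A2 and B1, the 2 libraries in which AI504432 was lowest. Kcna3, 1434 bases from AI504432 on the same strand, was low in A2 and B1 too. It had 11.6 FPKM in each, against 12.5 to 16.3 FPKM in the other libraries. The part of tissue content in the AI504432 and Gm45353 values was not tested.

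**Figure D3:**
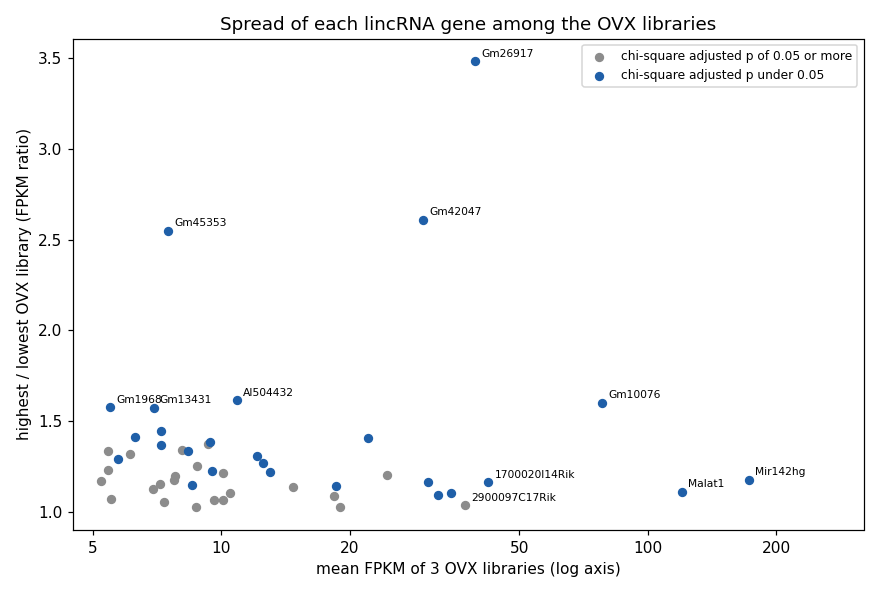
Ratio of the highest to the lowest OVX library against the OVX mean FPKM (log axis) for the 49 lincRNA genes. Blue points passed the chi-square test for a difference among the 3 OVX libraries, and grey points did not. Gm26917 stands highest at a ratio of 3.48, while the 2 most abundant genes, Mir142hg and Malat1, lie below 1.2.

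No member passed the test between the groups. limma on log2(FPKM + 1) with Benjamini-Hochberg adjustment called 0 of 49 members and 0 of 13968 genes (0.0% of genes), and limma voom on the recovered reads also called 0 of each. The smallest adjusted p was 0.660 among the members and 0.193 among all genes. At an unadjusted p under 0.05 there were 4 members, 8.16% of them, against 977 genes or 6.99% of all. Of the 4, 2 were higher in Zin, against 3.71% of all genes, and 2 were lower, against 3.29%. Since the OVX values that chose the members also enter this difference, the list was drawn again on all 6 libraries. It held 48 genes, shared 47 with the first, and had 0 called. With 0 of all genes called, any list would give 0, and the OVX values still enter the new choice. The redrawn list is therefore no check on the selection.

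The members' median log2 difference was 0.00, against -0.01 for all genes tested. Of the 49, 26 were higher and 23 lower in Zin, and 33 lay within 0.2 of 0. The median size of the difference was 0.14 for the members and 0.08 for all genes, with a median SE of 0.14 for the members, so differences of this size were not detectable with 3 libraries per group.

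**Figure D4:**
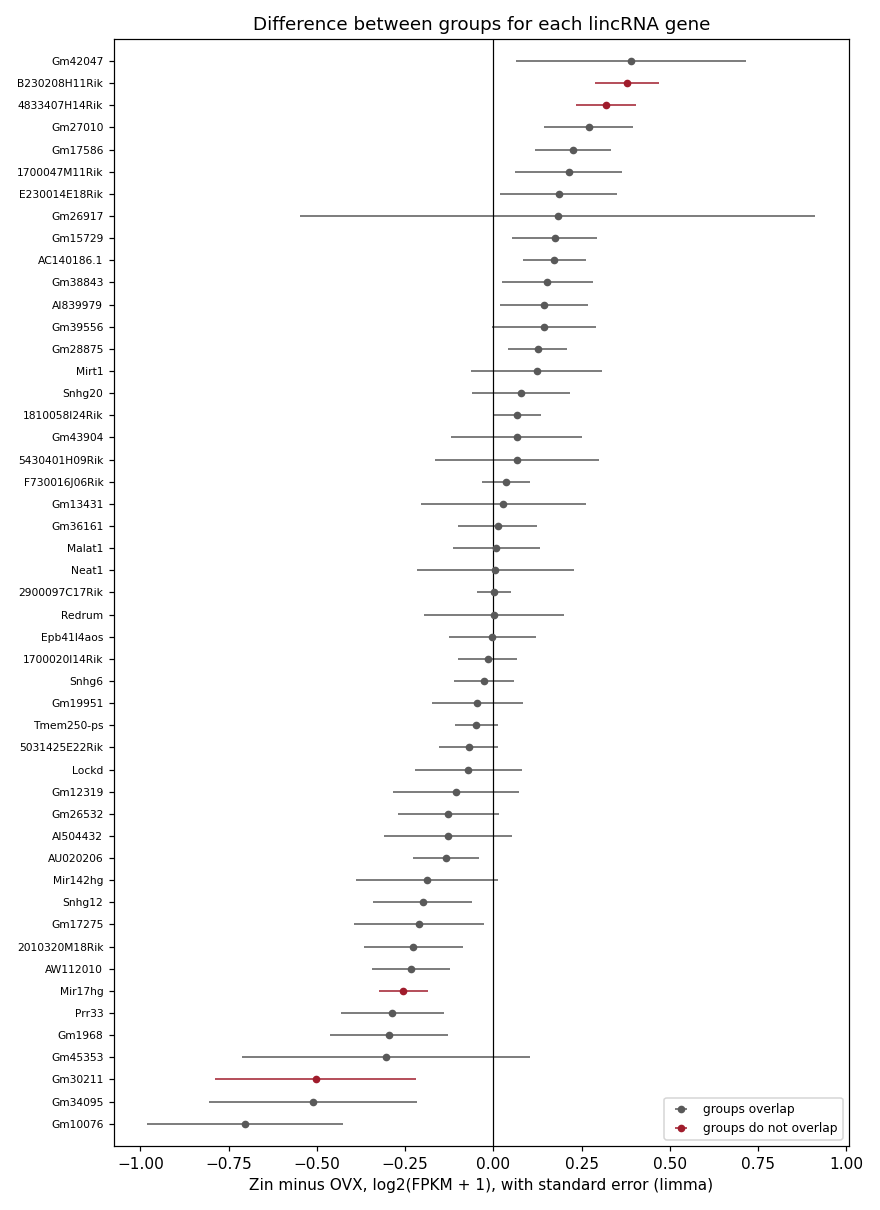
Zin minus OVX difference in log2(FPKM + 1) for the 49 lincRNA genes, with its limma standard error, ordered by size. Red marks the 4 genes whose groups did not overlap. The values run from -0.70 (Gm10076) to 0.39 (Gm42047), and the bar of Gm26917, at 0.73 on either side, is the longest.

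The groups did not overlap for 4 members. Those higher in every Zin library were B230208H11Rik and 4833407H14Rik, 4.08% of the members against 6.16% of all genes. Those lower in every Zin library were Mir17hg and Gm30211, 4.08% of the members against 6.74% of all genes. Neither share exceeds the background.

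B230208H11Rik had 10.99, 9.97 and 10.6 FPKM in OVX and 13.9, 12.5 and 15.7 FPKM in Zin. The log2 difference was 0.38 ± 0.09 (limma, unadjusted p = 0.00553, adjusted p = 0.660, n = 3 per group). It lies 15119 bases from Stx11, a gene of granule release in blood cells, whose difference was 0.06 (unadjusted p = 0.684).

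4833407H14Rik, named after its values were seen, had 9.24, 9.83 and 9.77 FPKM in OVX and 10.9, 12.4 and 13.5 FPKM in Zin. The log2 difference was 0.32 ± 0.09 (limma, unadjusted p = 0.00897, adjusted p = 0.660, n = 3 per group). It shares 1008 exon bases, 67.5% of its exons, with Mirt1 on the opposite strand. Mirt1 was highest in B3, as 4833407H14Rik was, but overlapped between the groups (log2 difference 0.12 ± 0.19). Without strand in the counting, reads in the shared bases cannot be told apart.

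Gm30211 had 7.60, 7.29 and 7.21 FPKM in OVX and 2.66, 7.05 and 5.96 FPKM in Zin. B1 was far below the other 5 libraries. The log2 difference was -0.50 ± 0.29 (limma, adjusted p = 0.8003, n = 3 per group), and -0.16 without B1. The gene spans the immunoglobulin kappa joining segments and Igkc on the same strand, where B cells rearrange and transcribe their light chain. Igkc, by contrast, had 2067, 1670 and 1557 FPKM in OVX and 2484, 2421 and 2993 FPKM in Zin (log2 difference 0.58 ± 0.15, unadjusted p = 0.00795, adjusted p = 0.660 with limma).

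Gm34095 had 8.71, 9.84 and 7.86 FPKM in OVX and 3.32, 8.86 and 6.58 FPKM in Zin, with B1 again the lowest. Its log2 difference was -0.51 ± 0.29 (limma, adjusted p = 0.803, n = 3 per group), -0.18 without B1 and -0.77 without B2. Cd79a was likewise lowest in B1, at 77.0 FPKM against 152 and 132 FPKM in B2 and B3. Of the 49 members, 11 had their lowest value in B1, Mir142hg and AU020206 among them, and 15 in B3. Of all genes tested, 20.7% were lowest in B1 and 28.6% in B3. The part of B cell content in these values was not tested.

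Gm42047 had the largest difference in the other direction, 0.39 ± 0.33 (limma, adjusted p = 0.884, n = 3 per group). It was 0.07 without A3 and 0.74 without A1, so single OVX libraries set its size. Prr33 had 10.8, 8.82 and 8.96 FPKM in OVX and 9.52, 7.01 and 6.58 FPKM in Zin (log2 difference -0.29 ± 0.14, adjusted p = 0.759), and B1 lay within the OVX range. It overlaps the muscle gene Tnnt3 on the opposite strand, with 0 shared exon bases. Tnnt3 had 246 FPKM in A1, 151 FPKM in A3 and at most 23.3 FPKM in the other 4 libraries. Prr33 also overlaps Lsp1 on the opposite strand, again with 0 shared exon bases, and Lsp1 had 48.2 to 56.6 FPKM.

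The members differed in their place in the genome. Coordinates are those of the deposited table, on mm10, and 45 of the 49 had the same span in GENCODE M21. Exon lengths ran from 252 to 20771 bases with a median of 1509, and 9 genes were a single exon block, Malat1, Neat1 and 2900097C17Rik among them. Despite the name, 6 of the 49 overlapped a protein-coding gene, and 23, these 6 included, lay within 5000 bases of one. For Gm42047 and Gm45353 the overlapping gene was Gm20388, which spans bases 119910841 to 124345722 of chromosome 8. It was listed at 0 in all libraries and shared 0 exon bases with either.

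Of the 49, 4 began within 1000 bases of a coding gene's start on the opposite strand, as transcripts of shared promoters do. They were 2010320M18Rik with Pik3r2 (102 bases), Gm17586 with Mafg (168 bases), 5031425E22Rik with Kmt2e (172 bases) and Gm12319 with Eno3 (709 bases). The last 2 members were named after their values were seen. Gm17586 had 5.99, 5.43 and 4.86 FPKM in OVX and 5.65, 7.23 and 6.69 FPKM in Zin, while Mafg, a partner of stress-response transcription factors, had 28.6 to 34.4 FPKM in the 6 libraries. 2010320M18Rik had 4.93, 6.47 and 4.86 FPKM in OVX and 3.78, 4.42 and 5.25 FPKM in Zin, and Pik3r2 had 12.0 to 13.2 FPKM. In both pairs the coding gene was the higher and the steadier. Gm12319 was at 5.62 to 9.12 FPKM while Eno3, the muscle enolase, was at 88.9 and 67.7 FPKM in A1 and A3 and at most 14.7 FPKM in the others.

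The RefSeq promoter of Gm17586 (GRCm38.p6, chr11:120633500-120633799, plus strand) is shown as the example of a shared start, with each CG in capitals. It held 39 CG, more than 95.6% of 32851 RefSeq promoters of the same 300 bases, and 69.7% G or C. The start of Mafg, on the other strand, is base 101 of the window.
Gm17586 promoter: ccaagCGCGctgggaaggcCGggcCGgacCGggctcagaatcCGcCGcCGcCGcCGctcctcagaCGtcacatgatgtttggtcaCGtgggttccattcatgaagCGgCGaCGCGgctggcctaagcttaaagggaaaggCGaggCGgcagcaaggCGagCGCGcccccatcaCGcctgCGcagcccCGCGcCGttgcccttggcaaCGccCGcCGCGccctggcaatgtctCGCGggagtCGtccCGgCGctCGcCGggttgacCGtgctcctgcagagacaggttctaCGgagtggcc

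Of the nearest coding neighbours, 39 were tested and 0 were called, and 6 had an unadjusted p under 0.05, a threshold passed by 6.99% of all genes tested. Among these were Cep19 beside Gm15729 (log2 difference 0.30 ± 0.06, unadjusted p = 0.00276) and the ficolin gene Fcnb beside F730016J06Rik (0.26 ± 0.06, unadjusted p = 0.00487), all with an adjusted p of at least 0.660 (limma). The lincRNAs themselves, named after their values were seen, had log2 differences of 0.17 ± 0.12 and 0.04 ± 0.07. Fcnb is a gene of marrow myeloid cells, and the 6 neutrophil markers summed to 19975 to 22053 FPKM in OVX and 25473 to 26122 FPKM in Zin. Most of that sum came from S100a8 and S100a9. Ly6g of the same list overlapped between the groups, and the other markers of the list did not. The part of neutrophil content in the Fcnb values was not tested.

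Gm43904 ends 592 bases before the platelet gene Gp9 on the same strand. It had 15.1, 13.6 and 15.5 FPKM in OVX and 18.003, 18.3 and 11.2 FPKM in Zin, while Gp9 had 87.1, 60.2 and 87.9 FPKM in OVX and 60.5, 77.3 and 73.6 FPKM in Zin. The pair did not follow each other. 5430401H09Rik had 16.985, 19.4 and 19.3 FPKM in OVX and 26.4, 20.9 and 13.2 FPKM in Zin, with B1 high and B3 low.

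Counting is less certain for members that share sequence. Exon bases were shared with another gene by 9 of the 49, leaving out small RNA genes that lie wholly within a member. Such small RNA genes lay in exons of Malat1, Neat1, Snhg12, Mir17hg and Snhg20. Exon bases were shared with a coding gene by 2 of the 49. Gm17275 shares 25.0% of its exon bases with the histone gene H3f3a and Snhg6 shares 11.1% with Mcmdc2. Gm17275 and Gm36161 were named after their values were seen. A stretch of at least 100 bases at 95% identity or more was found in another gene's transcript for 11 of the 49. It covered at least 80% of the transcript for Gm10076, as above, and for Gm36161, whose copy Gm21188 had 3.88 to 5.34 FPKM against 10.7 to 13.9 FPKM for Gm36161. For 2900097C17Rik the copy Gm7292 covered 51.6% of the transcript and had at most 0.322 FPKM. For Gm42047 such stretches lay in 8 other genes. The longest, in Gm48362, covered 64.3% of the Gm42047 transcript, and Gm48362 averaged 0 FPKM in OVX.

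The libraries held 16275350 to 17117456 reads assigned to genes. A gene listed at 0 in one of them may still have held up to 1.84e-05% of its reads (3 reads, counting error only). Markers of marrow and bone were present in all libraries, beyond those of the macrophage line that the sample records name: erythroid markers summed to 26356 to 51456 FPKM and osteoblast markers to 795 to 2928 FPKM. No marker gene was called between the groups.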

How the data were processed

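The data are RNA-seq of mouse femur, 3 OVX and 3 Zin libraries. Per the submitters' processing notes, Trimmomatic, FastQC, STAR and featureCounts were used with build mm10; versions, the annotation and the strand setting were not given in those sources. The values deposited by the authors are FPKM per gene, in 1 table. Their median-of-ratios factor, a scale set by the typical gene, was 1.0056 in every column. The columns were thus already on a common scale of that kind. Columns A1 to A3 were matched to OVX by the labels; B1 to B3 match no label and were taken as Zin by elimination. FPKM times gene length gave whole multiples of 1 read for 99.95% to 99.99% of values (within 0.01 read), so reads were recovered for chi-square tests, shares and voom. The libraries held 16275350 to 17117456 reads assigned to genes.

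Genes averaging 1 FPKM or more across all 6 libraries were tested on log2(FPKM + 1) with limma 3.58.1 (lmFit, eBayes with trend, R 4.3.3), Benjamini-Hochberg adjusted over 13968 genes, called below 0.05. Fold changes on this scale understate changes of low genes. Copies were searched with blastn 2.17.0 against GENCODE M21 transcripts. Tests were checked on simulated data. The members, gene lists and marker lists were chosen with earlier results of these data known. Named genes were members with non-clone names, the 8 highest clone-named members, called members, the 3 genes on either side of the threshold, the 5 largest differences and OVX ratios, and members of the fixed lists; others are marked. Alternatives were pseudocounts, filters, eBayes without trend, median-of-ratios scaling, voom, thresholds and leaving out each library. Of the marker lists, adipocyte markers summed to 75.0 to 278 FPKM in OVX and 53.0 to 743 FPKM in Zin. The summed level of the B cell marker list is not reported here.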

Additional observations from a re-analysis of the deposited data

How the results depend on the processing

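With 3 libraries per group, limma called 0 members and 0 genes under pseudocounts of 0.1 and 5, no filter or a 5 FPKM filter. It called 0 of each with eBayes without trend, with voom, and on FPKM recomputed from the reads listed. That recomputation was chosen after seeing the data. Median-of-ratios scaling also gave 0 of each, but its factor was 1.0056 in every column. It could therefore hardly change the result and is no separate check. Leaving out each library in turn gave 0 to 47 genes, the 47 without A2, and 0 members each time. The threshold in the study's design text, an unadjusted p under 0.05 with a log2 difference beyond 0.2, gave 785 of 13968 genes and 4 of 49 members. Nothing is read from the 4 members, because the OVX values that chose them enter the difference. A minimum of 2 FPKM gave 143 members and one of 10 FPKM gave 23; leaving out an OVX library gave 51. The chi-square test called 14 to 18 members when an OVX library was left out (14 without A1, 16 without A2). Fewer reads and fewer libraries were then compared, and why the count fell was not tested. With a ratio of at least 1.5 required as well, the chi-square test called 7. For these changed chi-square settings the share of all genes called was not computed, so the counts describe the members only. Alternatives were run for 7 members: Gm10076, B230208H11Rik, 4833407H14Rik, Mir17hg, Gm34095, Gm30211 and Gm42047. Over 98 such alternatives 0 differences reversed. Among the 98 are the changed filters and eBayes without trend, which leave a gene's log2 difference as it was. Median-of-ratios scaling, also included, could hardly change it. These settings are therefore no check of direction. No paired analysis was possible because the B columns carry no label that ties them to a numbered sample.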
